A study of Mus musculus with 5 samples.

Results

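The transcripts described here are those of 10 mouse genes that encode enzymes of glycolysis and lactate formation, namely Hk2, Gpi1, Pfkl, Aldoa, Tpi1, Gapdh, Pgk1, Eno1, Pkm and Ldha. They were chosen by name out of the 55385 genes in the count tables, 1 isozyme for most steps and none for phosphoglycerate mutase. All 10 passed the filter on low counts that left 10287 genes for testing. The RNA came from EL4, a mouse T lymphoma line with no genetic change or treatment named for these libraries, and it was measured by Surface-seq, in which plasma membrane is purified from lysed cells and wrapped, outer side out, around polymer cores. In the 3 variation A libraries (A1, A2 and A3), RNA was extracted from the whole coated particles and then made into a library. In the 2 variation B libraries (B1 and B2), a 3′ adaptor was joined to RNA while it was still on the particles, which favours RNA that faces outward. The comparison therefore asks which glycolytic transcripts take a larger or smaller place among outward-facing membrane RNA than among membrane RNA in general. The methods also describe phenol extraction and repair of RNA ends for variation A. For variation B they describe isolation on silane beads and raised RNA input and PCR cycles, and they mention no end repair. In this design the side of the membrane cannot be told apart from the order of the library steps or from these other differences.

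Glycolysis splits glucose into pyruvate in the cytosol and yields ATP and NADH. Hexokinase, glucose phosphate isomerase, phosphofructokinase, aldolase and triose phosphate isomerase turn glucose into triose phosphate. Glyceraldehyde phosphate dehydrogenase, phosphoglycerate kinase, enolase and pyruvate kinase then draw energy from it, and lactate dehydrogenase turns pyruvate into lactate and restores NAD+. Lymphoma cells run this route fast even with oxygen at hand, and its enzymes are read from some of the most abundant mRNAs of most growing cells. These mRNAs have also been copied back into the genome many times as processed pseudogenes, intron-free copies that can be nearly identical to the mRNA. The enzymes themselves work in the cytosol, and their mRNAs encode no signal peptide that would bring translation to the membrane.

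Depth and make-up differed between the variations. Values are given below in the order A1, A2, A3 and then B1, B2. Counts on genes summed to between 1187117 and 4502174 in variation A and to 21862003 and 22980172 in variation B. Protein-coding nuclear genes took 39.3, 22.6 and 22.0% of the counts in variation A and 63.5 and 64.4% in variation B, and A1 stood apart from the other A libraries. Ribosomal RNA and mitochondrial genes took 51.5, 54.1 and 54.0% against 25 and 26.2%, and the part of this shift in the results was not tested. Of 9 T cell markers, 8 were in the tables and all 8 had counts in each library, with a summed level of 704 to 782 CPM on totals rescaled by the TMM factor of edgeR in variation A and 1123 to 1125 in variation B (400 to 685 and 2064 to 2108 CPM on plain library totals). Of 14 markers of B, myeloid, erythroid, fibroblast and epithelial cells, 5 (Ms4a1, Hbb-bs, Col1a2, Dcn and Krt18) had 0 counts in all 5 libraries, and the list summed to 0.992 to 6.22 CPM in variation A and 2.86 to 3.27 in variation B on rescaled totals, and to 0.869 to 3.55 and 5.35 to 6.01 on plain totals. Lyz2, the lysozyme of myeloid cells, had 0 counts in the A libraries and 73 and 133 counts in the B libraries. It was the 1 marker of this list with enough counts to test, and was called higher in variation B (edgeR adjusted p = 0.0365). The other myeloid markers did not share this pattern. Csf1r had 0, 7 and 2 counts and then 5 and 0, and Itgam 0, 4 and 0 and then 20 and 0. Cd14 had 0, 1 and 0 counts and then 1 and 0. The part of Lyz2 in the results was not tested.

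Sequence shared with pseudogenes limits what can be counted on these genes, because reads that fit several places in the genome were left out by the counting. The share of 30-base words of each principal transcript that also occur in annotated pseudogene transcripts was 84.2% for Gapdh, 68.3% for Pgk1, 57.5% for Eno1 and 49.8% for Pkm. It was 36.0% for Ldha, 30.4% for Gpi1, 28.0% for Aldoa and 18.3% for Tpi1, and it was close to 0 for Pfkl (0.70%) and Hk2 (0.24%). With 50-base words the share stayed at 82.5% for Gapdh and 68.0% for Pgk1 but was 17.1% for Ldha and 8.6% for Aldoa. For Gapdh, Pgk1 and Eno1, the 60 coding bases below are letter for letter the same in the gene and in the pseudogene shown. A read inside them therefore fits both by its sequence. The Gapdh window runs over a splice junction that its copy lacks, and how reads there were placed was not tested. The pseudogene shown is the copy with the most bases identical to the transcript (GENCODE M21 transcripts, GRCm38, read 5′ to 3′ along the coding strand).
Gapdh (chr6:125163400-125165293, minus strand, over a splice junction) and Gm7336 (chr7:51746697-51746756, plus strand): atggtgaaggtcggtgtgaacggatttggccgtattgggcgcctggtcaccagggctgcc
Pgk1 (chrX:106187252-106187311, plus strand) and Pgk1-rs7 (chr12:10900181-10900240, minus strand): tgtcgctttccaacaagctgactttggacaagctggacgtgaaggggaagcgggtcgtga
Eno1 (chr4:150239482-150239541, plus strand) and Gm4735 (chr2:80837141-80837200, plus strand): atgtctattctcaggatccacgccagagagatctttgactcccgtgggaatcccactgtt

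The window chosen the same way for Gpi1 was identical to Gm1840 at 60 of 60 bases as well, and that of Tpi1 matched Tpi-rs5 at 54 of 60. For Pkm, Ldha and Aldoa the copy chosen by the same rule differed inside the window, and capitals mark the bases that differ. Pkm matched Gm6560 at 59 of 60 bases, while Ldha matched Gm9247 and Aldoa matched Gm8659 at 56 of 60 each.
Pkm (chr9:59665213-59665272, plus strand): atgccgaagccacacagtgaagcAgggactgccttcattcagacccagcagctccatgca
Gm6560 (chr5:22726109-22726168, minus strand): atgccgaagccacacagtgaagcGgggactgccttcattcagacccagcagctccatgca
Ldha (chr7:46847620-46847679, plus strand): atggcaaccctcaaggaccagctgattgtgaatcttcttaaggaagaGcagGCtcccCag
Gm9247 (chr14:93195637-93195696, minus strand): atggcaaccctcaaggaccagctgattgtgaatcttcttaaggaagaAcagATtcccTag
Aldoa (chr7:126797655-126797714, minus strand): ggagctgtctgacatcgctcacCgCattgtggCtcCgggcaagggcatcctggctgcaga
Gm8659 (chrX:158150134-158150193, plus strand): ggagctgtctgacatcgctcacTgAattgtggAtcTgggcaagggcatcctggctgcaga

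Between variation A and variation B, 4 of the 10 genes fell and none rose. Gapdh was 5.99-fold and Eno1 5.77-fold lower in variation B, Ldha was 3.0-fold lower and Hk2 was 2.24-fold lower. The other 6 genes did not pass the test, which asked for an adjusted p under 0.05 (quasi-likelihood test of edgeR, Benjamini-Hochberg over the 10287 genes) and a fold change above 2. Over all genes tested, 12.4% were called lower and 11.0% were called higher in variation B by the same rule. The median log2 fold change of the 10 was -1.02, beside 0.05 over all genes tested. The levels behind these folds are CPM with each total rescaled by edgeR's TMM factor, which sets the libraries so that most genes keep their level. At this scale both B libraries were below all 3 A libraries for 9 of the 10 genes, a pattern held by 26.7% of all genes tested, with the reverse pattern in 31.2%. The labels do not say whether libraries of a variation came from separate cultures, so p-values measure the spread between libraries, which may be technical. In such bulk samples, fewer cells or particles with a transcript and less of it in each cannot be told apart.

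**Figure D1:**
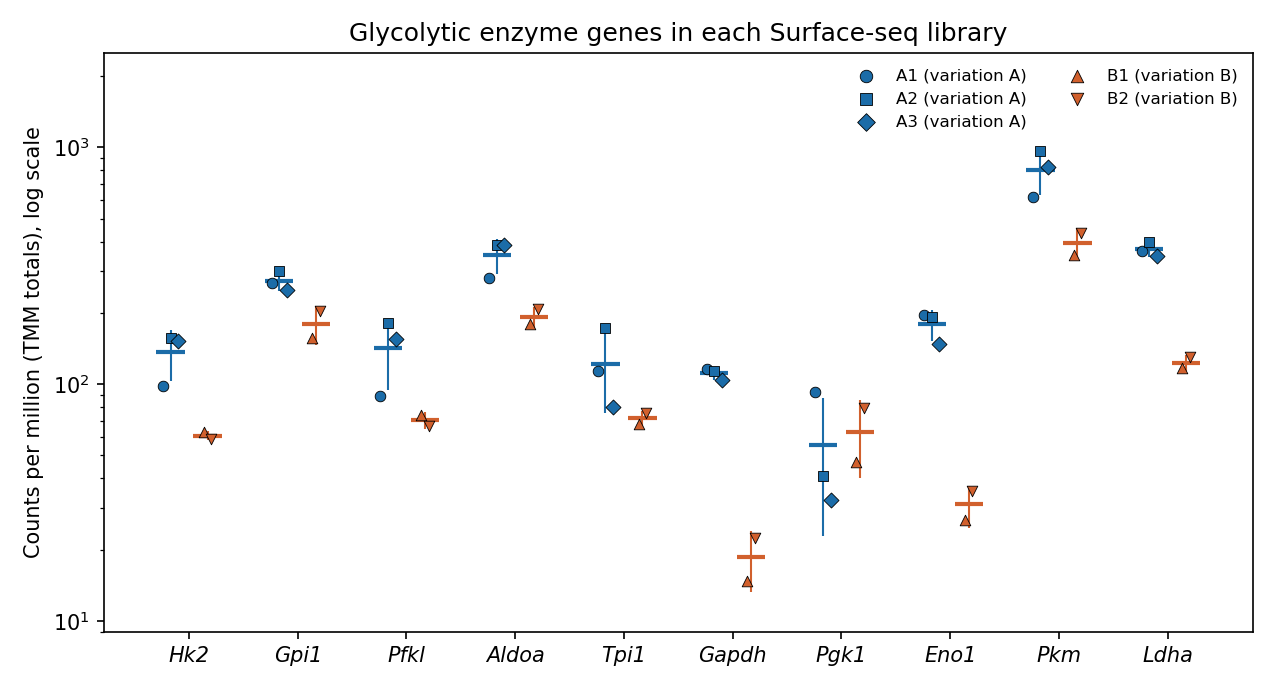
Level of each glycolytic gene in the 5 libraries, in CPM on TMM-rescaled totals, on a log axis. Blue symbols are variation A, orange symbols variation B, bars the group mean and thin lines 1 SD. Gapdh and Eno1 show the widest gap between groups, and Pgk1 is the gene whose groups overlap.

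Among the enzymes up to triose phosphate, Hk2 was the member past the test. Hk2 (chr6:82725025-82774454, minus strand), the hexokinase induced in growing cells, was at 98.7, 157 and 153 CPM in variation A against 62.7 and 58.7 in variation B. Coordinates here are of GRCm38, as the count tables give them. All A libraries lay above both B libraries, and the log2 fold change was -1.16 ± 0.32 (SE; edgeR adjusted p = 0.0334). The call held without A1 and was lost without any other library (edgeR adjusted p = 0.166 without A2, 0.133 without A3, 0.194 without B1 and 0.251 without B2). It was also lost with no filter on low counts (-0.94, edgeR adjusted p = 0.126) and, as the fold was under 2, with at least 10 counts in each library (-0.90), and on plain library totals the value was 0.37.

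Gpi1, Pfkl, Aldoa and Tpi1 had lower means in variation B but did not pass. Gpi1, which turns glucose 6-phosphate into fructose 6-phosphate, was at 266, 301 and 250 CPM in variation A and 156 and 204 in variation B (log2 fold change -0.60 ± 0.30, edgeR adjusted p = 0.175). Pfkl, the liver-type phosphofructokinase, was at 88.8, 181 and 156 against 74.4 and 66.3 (-1.01 ± 0.36, edgeR adjusted p = 0.0736). In A1 it was close to the B libraries and in A2 and A3 well above them, and without A1 it passed the test (edgeR adjusted p = 2.5e-04).

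Aldoa, the aldolase that cuts the 6-carbon sugar into triose phosphates, was at 281, 385 and 387 CPM in variation A and 179 and 207 in variation B (-0.86 ± 0.32, edgeR adjusted p = 0.081). Tpi1, which interconverts the triose phosphates, spread most of the enzymes up to triose phosphate within variation A relative to its mean, with 114, 172 and 80.0 CPM against 68.2 and 75.7 (-0.78 ± 0.36, edgeR adjusted p = 0.145). The lowest A library and the higher B library were thus close to touching for Tpi1. Tpi1 rests on 54 counts in A3.

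Among the enzymes after triose phosphate, Gapdh and Eno1 changed most. Gapdh (chr6:125161715-125166467, minus strand), which oxidises glyceraldehyde 3-phosphate and makes NADH, was at 116, 114 and 104 CPM in the A libraries and at 14.8 and 22.4 in the B libraries, from 233, 293 and 70 counts and 606 and 945 counts. The A libraries agreed to within a narrow band and the groups were far apart, with a log2 fold change of -2.58 ± 0.32 (edgeR adjusted p = 0.00218). Eno1 (chr4:150236721-150248879, plus strand), the enolase that makes phosphoenolpyruvate, was at 196, 192 and 148 CPM against 26.6 and 35.5, with a log2 fold change of -2.53 ± 0.33 (edgeR adjusted p = 0.00255). Its adjusted p was 0.0528 without B1, while Gapdh passed with any 1 library left out. Of all genes tested, 4.56% had a lower log2 fold change than Gapdh and 4.71% a lower one than Eno1.

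Pgk1 (chrX:106187100-106203699, plus strand), the phosphoglycerate kinase that works between these enzymes and yields the first ATP, did not pass the test. It was at 92.2, 40.8 and 32.6 CPM in variation A against 46.9 and 79.1 in variation B, so A1 was above both B libraries and A2 and A3 below them. Its log2 fold change was 0.16 ± 0.46 (edgeR adjusted p = 0.812) and took either sign when a library was left out. Pgk1 had the fewest counts of the 10 in A2 (105) and A3 (22). The difference of its fold change from those of Gapdh and Eno1 was not tested.

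Pkm (chr9:59656368-59679375, plus strand), the pyruvate kinase of growing cells, had the most counts of the 10 in all 5 libraries, from 556 in A3 to 18447 in B2. It was at 619, 969 and 824 CPM in variation A and 352 and 437 in variation B, with no overlap, and a log2 fold change of -1.03 ± 0.37 that missed the threshold (edgeR adjusted p = 0.0747). Without A1, the A library nearest to the B libraries, it passed (edgeR adjusted p = 6.4e-04). It also passed with protein-coding genes only (-1.04, edgeR adjusted p = 0.0455). Of its exon bases, 15.3% are shared with Gm49759, an unverified gene model on the same strand, and reads over both were not counted.

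Ldha (chr7:46841475-46855627, plus strand), which turns pyruvate into lactate, fell. It was at 366, 399 and 347 CPM in variation A against 117 and 130 in variation B, with all A libraries above both B libraries (log2 fold change -1.59 ± 0.31, edgeR adjusted p = 0.0107). The call held without A1 or A3 and was lost without A2, B1 or B2 (edgeR adjusted p = 0.0597, 0.143 and 0.145). On plain library totals the log2 fold change was -0.12 (edgeR adjusted p = 0.791), and the call was lost.

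The sign of most of these changes depends on what a library's total is taken to be. Taken against all counts on genes, with no rescaling, 7 of the 10 genes (Hk2, Gpi1, Pfkl, Aldoa, Tpi1, Pgk1 and Pkm) were above all A libraries in both B libraries, Gapdh and Eno1 were below, and Ldha overlapped. Over all genes tested, 75.0% lay above and 5.06% below in the same way, so the 7 genes are near the background. On that scale the median log2 fold change over all genes tested was 1.50, with 5668 genes called higher and 301 lower in place of 1135 and 1276. Set against that median, Gapdh stood at -2.63, Eno1 at -2.58, Ldha at -1.62 and Hk2 at -1.14, and Pgk1 at 0.01. The fold changes of Gapdh (-1.12) and Eno1 (-1.08) were below 0 on this scale too, and that of Gapdh alone passed the test (edgeR adjusted p = 0.0477 for Gapdh, 0.061 for Eno1).

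**Figure D2:**
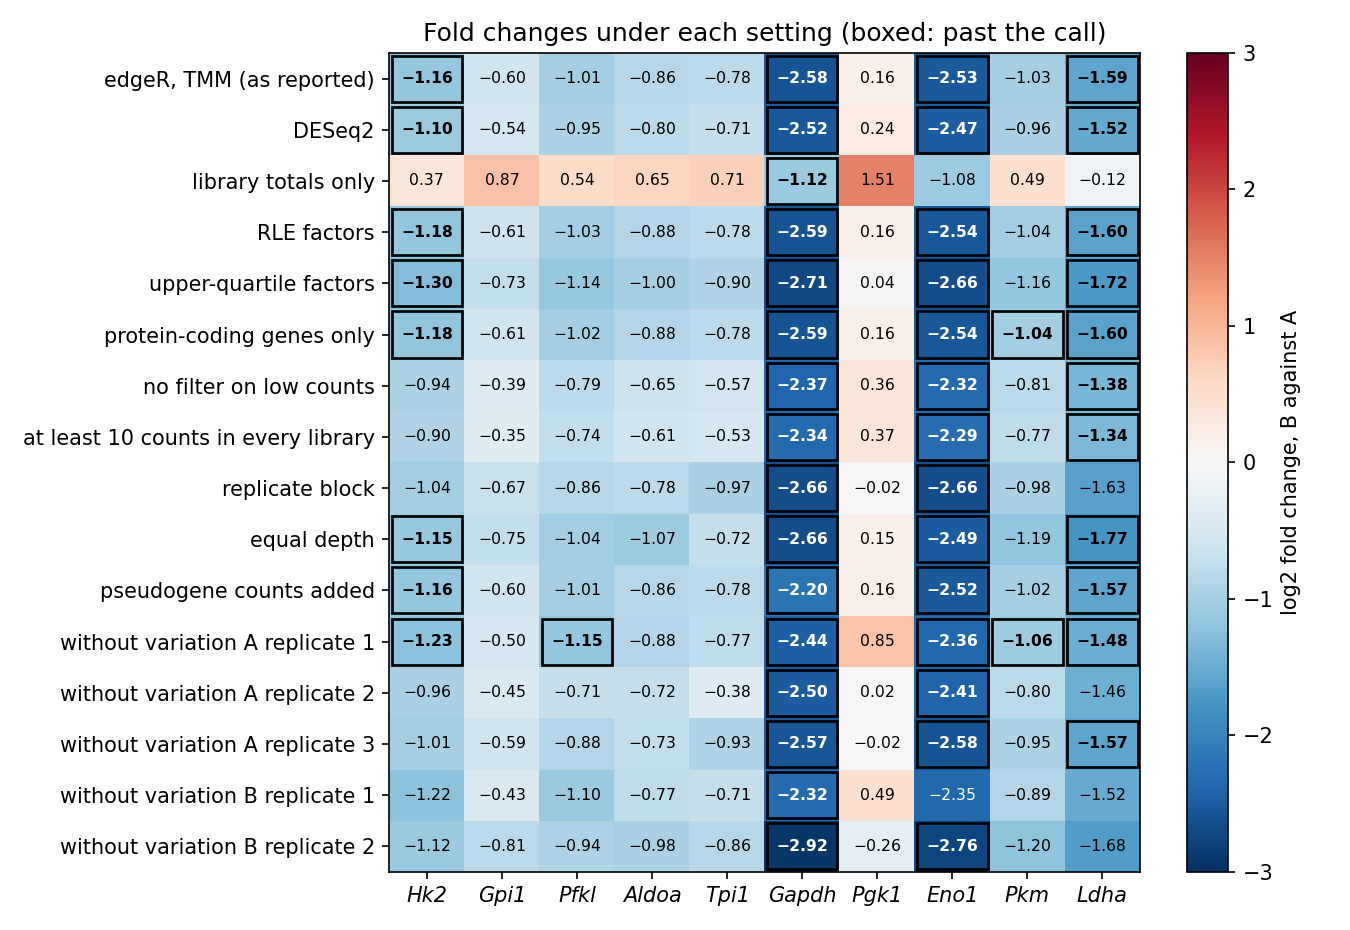
Log2 fold change of variation B against variation A for each gene (columns) under each setting (rows), from blue (lower in B) to red (higher in B), with boxes around values past the test. The row of library totals is the one where 7 genes are above 0, and Gapdh is boxed in all 16 rows.

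Together the 10 genes took a small share of each library. They held 0.196, 0.166 and 0.141% of all counts in the A libraries against 0.206 and 0.242% in the B libraries, with Wilson 95% intervals of 0.134 to 0.148% in A3, the shallowest library, and 0.240 to 0.244% in B2. These intervals cover counting error only. The A libraries had a mean share of 0.168 ± 0.028% (SD, n = 3) and the B libraries of 0.224 ± 0.026% (SD, n = 2), a difference of 0.056 percentage points (two-sided exact permutation test, p = 0.2, where 3 libraries against 2 cannot go below 0.1). Among counts on protein-coding nuclear genes the order was the reverse, with 0.499, 0.736 and 0.642% against 0.324 and 0.376%. The means there were 0.626 ± 0.120% (SD, n = 3) and 0.350 ± 0.037% (SD, n = 2; two-sided exact permutation test, p = 0.2). The glycolytic genes thus made up more of all RNA counts but less of the mRNA counts in variation B, and neither difference passed the test.

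The make-up of the glycolytic counts needs no scaling between libraries. Gapdh took 5.16, 3.91 and 4.18% of the counts on the 10 genes in variation A but 1.35 and 1.70% in variation B. Eno1 took 8.75, 6.60 and 5.97% against 2.43 and 2.7%, and Ldha took 16.4, 13.7 and 14.0% against 10.6 and 9.90%. These 3 genes held a smaller part of the glycolytic counts in both B libraries than in any A library.

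Gpi1, Aldoa and Pgk1 held a larger part in both B libraries than in any A library. Gpi1 took 11.9, 10.3 and 10.1% in variation A and 14.2 and 15.5% in variation B, and Aldoa took 12.6, 13.2 and 15.6% against 16.3 and 15.7%. The step for Aldoa is narrow, and the Wilson 95% interval of A3 (13.9 to 17.4%) covers both B values. Pgk1 took 4.12, 1.40 and 1.31% against 4.27 and 6.02%, so its gap too rests on a narrow step, between A1 and B1. Hk2, Pfkl, Tpi1 and Pkm overlapped between the groups, and Pkm stayed between 27.7 and 33.3% in all 5 libraries. For each 100 Pkm counts there were 11.8 to 18.7 Gapdh counts in the A libraries and 4.2 and 5.12 in the B libraries, and 18 to 31.7 Eno1 counts against 7.57 and 8.12. Shares of 1 total are tied to each other, and no test was made on them.

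**Figure D3:**
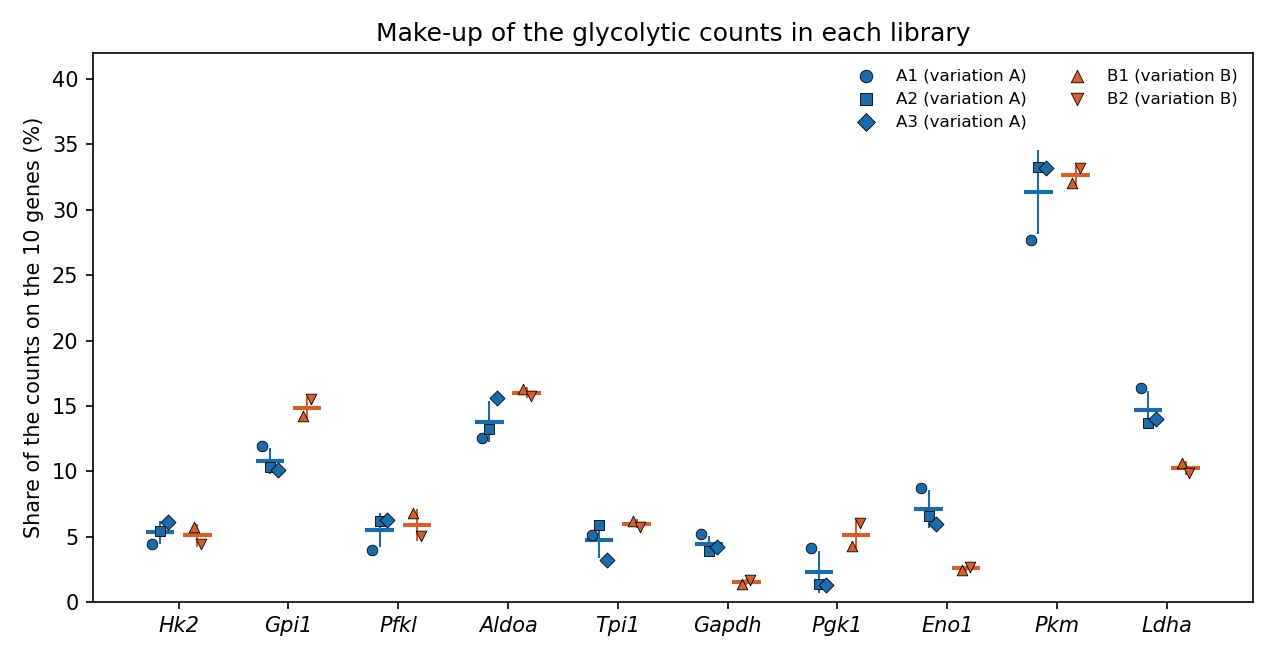
Share of the counts on the 10 glycolytic genes taken by each gene, in percent, in the 5 libraries, with the group mean (bar) and 1 SD (thin line). Gapdh, Eno1 and Ldha sit lower in both variation B libraries, Gpi1, Aldoa and Pgk1 sit higher, and Pkm stays between 27.7 and 33.3%.

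Levels can be compared between genes only per length, and for this the counts were divided by each gene's exon length in the count table and scaled to the same sum over the 21884 protein-coding nuclear genes (TPM). In variation A the order of mean levels was Pkm (1929 ± 366 TPM, SD, n = 3), Aldoa (1450 ± 221), Ldha (1347 ± 70), Tpi1 (532 ± 189), Gpi1 (508 ± 37), Eno1 (400 ± 60), Gapdh (324 ± 21), Pgk1 (299 ± 183), Hk2 (274 ± 60) and Pfkl (254 ± 79). Aldoa and Ldha did not differ by more than the larger SD, nor did Tpi1 and Gpi1, nor Gapdh and Pgk1, Pgk1 and Hk2, and Hk2 and Pfkl. In variation B, Pkm (1131 ± 148 TPM, SD, n = 2), Aldoa (951 ± 77) and Ldha (535 ± 30) again led, but Pgk1 (402 ± 137) came next, and Eno1 (82.8 ± 14.8) and Gapdh (64.4 ± 17.2) came last. There Ldha and Pgk1, Pgk1 and Gpi1, Gpi1 and Tpi1, and Pfkl and Hk2 did not differ by more than the larger SD.

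Among all protein-coding nuclear genes ordered by TPM, Pkm was at rank 28, 27 and 35 in the A libraries and at rank 92 and 73 in the B libraries. Gapdh was at rank 361, 462 and 486 in the A libraries and at rank 4338 and 3090 in the B libraries. Gapdh is often used as a reference gene for its high level in whole cells, and here it was behind at least 6 of the 10 in both variations. The exon length in the tables joins all transcript forms (4133 bases for Gapdh, whose principal transcript has 1420), which lowers the TPM of genes with many long forms, and reads that also fit pseudogenes are missing from it.

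The fold changes were set beside the shared sequence for all protein-coding genes tested. Of 9522 such genes, 9521 had a value for the share of 30-base words found in pseudogenes. Among the 7479 genes with under 1%, 12.2% were called lower, with a median log2 fold change of 0.05. Among the 1646 with 1% to under 25%, 8.93% were called lower and the median was higher, at 0.14. Among the 123 with 50% or more, 35.0% were called lower and 3.25% higher, and the median was -0.90. The 273 genes with 25% to under 50% had 16.5% called lower and a median of -0.30.

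The 10 glycolytic genes are spread over these classes. Gapdh and Eno1, in the class of 50% or more, were below its lower quartile of -1.69, while Pgk1, in the same class, was above its upper quartile of 0.08. Hk2 and Pfkl, which share almost nothing with pseudogenes, had log2 fold changes of -1.16 and -1.01, below the lower quartile of -0.78 in their class. In the class of 25% to under 50%, Gpi1 (-0.60), Aldoa (-0.86) and Pkm (-1.03) were within the quartiles of -1.14 and 0.44. Ldha (-1.59), of the same class, was below them. Tpi1 (-0.78) was below the lower quartile of -0.61 in the class of 1% to under 25%. Hk2 and Ldha passed the test with 0.24% and 36.0% of shared words. The part of shared sequence in the fold changes was not tested.

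**Figure D4:**
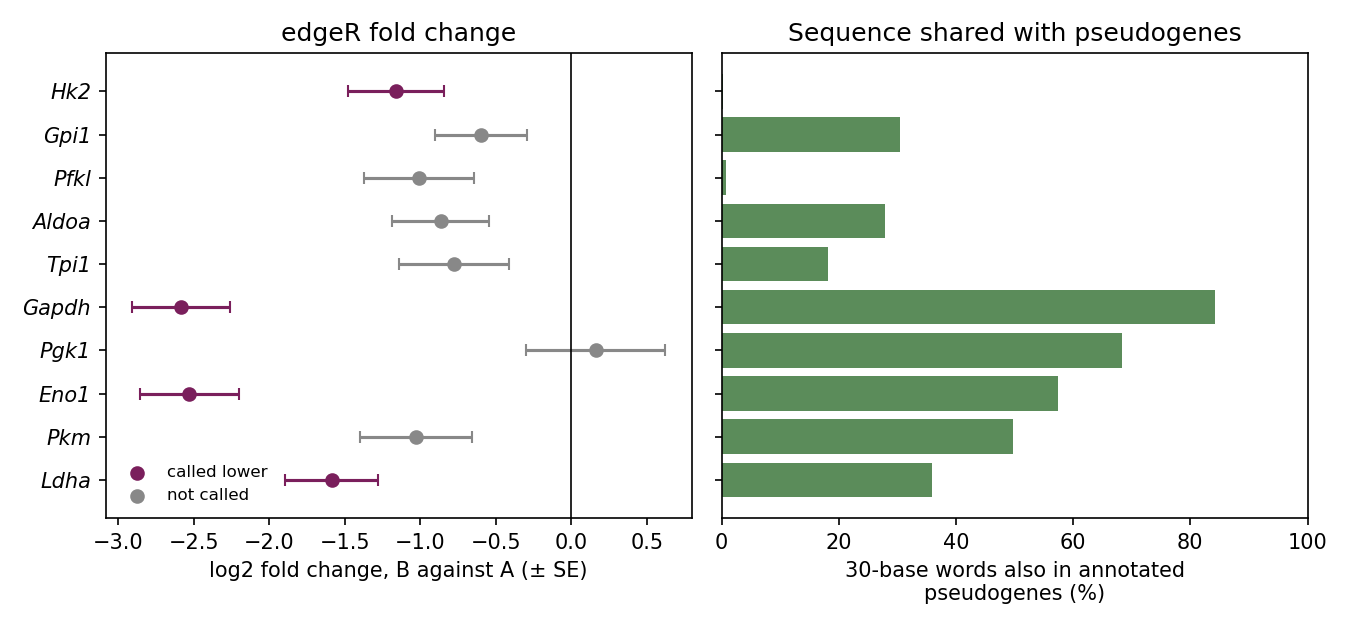
Left, log2 fold change of variation B against variation A with its SE for each gene, coloured where past the test. Right, percent of 30-base words of the principal transcript that also occur in annotated pseudogenes, from 0.24% for Hk2 to 84.2% for Gapdh. Gapdh, Pgk1 and Eno1 share the most, and of these Pgk1 was not called lower.

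**Figure D5:**
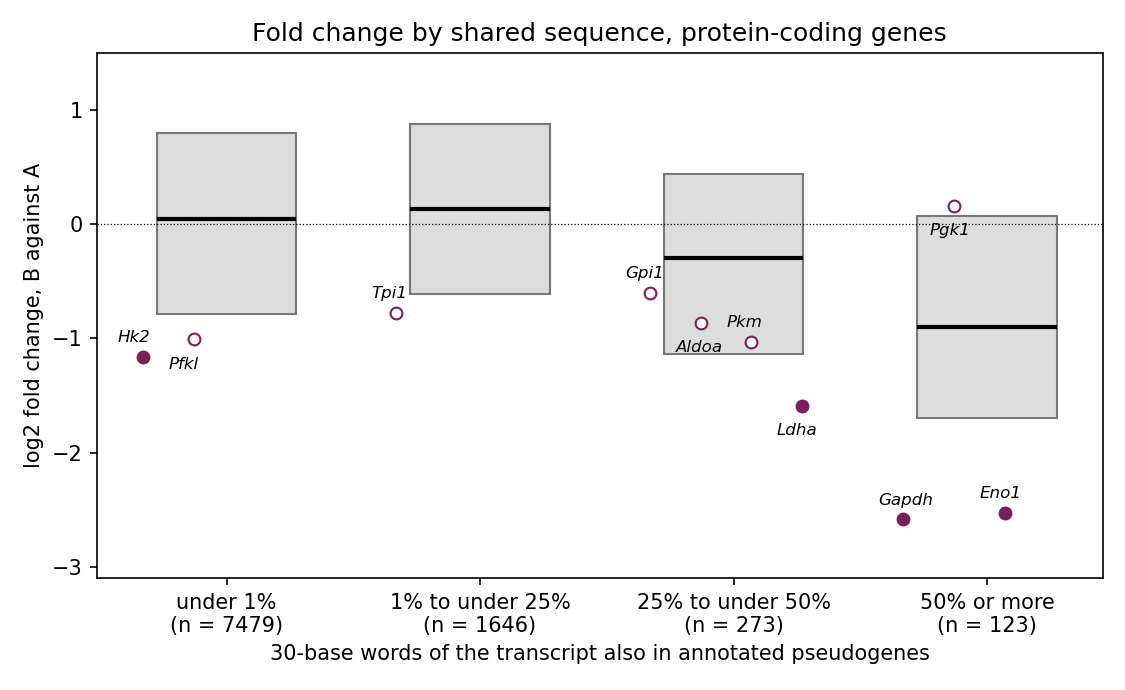
Log2 fold change of protein-coding genes in 4 classes of shared sequence, with grey boxes from the lower to the upper quartile and a black line at the median, and the glycolytic genes as circles, filled where called lower. The medians are 0.05, 0.14, -0.30 and -0.90 from the lowest class to the highest.

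Counts on the pseudogenes themselves were few. By sequence, 337 annotated pseudogenes were assigned to the 10 genes, 272 of them to Gapdh and 25 to Ldha, and 112 had 0 counts in all 5 libraries. Those of Gapdh summed to 28, 78 and 21 counts in the A libraries and 472 and 454 in the B libraries. As a share of the counts on Gapdh and its copies together, this was 10.7, 21 and 23.1% in variation A against 43.8 and 32.5% in variation B. The share was higher in both B libraries than in any A library. The most counted Gapdh copies were Gm5976 (0 counts in each A library, 24 in B1 and 55 in B2) and, tied at 53 counts in all, Gm2467 (0 in each A library, 13 and 40) and Gm6771 (0, 1 and 0, then 5 and 47).

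For the other 9 genes the copies held at most 1.82% of the joint counts in any library. The most counted pseudogene of all was Gm6560 of Pkm, with 2, 10 and 3 counts in variation A and 132 and 161 in variation B, and its second, Gm6992, had 2, 1 and 0 counts and 4 and 10. Ldha's were Gm5063 (0 in each A library, 45 and 10) and Gm15707 (1, 0 and 1, then 5 and 44), and Aldoa's were Gm5389 (0 in each A library, 18 and 14) and Gm8659 (0, then 7 and 15). Those of Pgk1, AC131796.1 (0 in each A library, 11 and 1) and Gm21007 (0, then 4 and 0), were fewer. Tpi-rs11 of Tpi1 had 3, 0 and 1 counts and 6 and 20, AC132091.1 had 0 in each A library and 3 and 4, and Gm1840 of Gpi1 had 2, 2 and 0 and 6 and 15. Gm4735 of Eno1 had 1, 2 and 0 counts and 6 and 2, and Gm5223 had 1, 1 and 0 and 2 and 5. Gm48789 of Gpi1 and Gm47803 of Hk2 had 0 counts in all 5 libraries, and Pfkl had no assigned pseudogene. With the pseudogene counts added to their genes, Gapdh had a log2 fold change of -2.20 ± 0.30 (edgeR adjusted p = 0.00303). Eno1, Ldha and Hk2 had values of -2.52, -1.57 and -1.16, and all these genes were called lower. Reads that fit both a gene and a copy were left out before counting. Adding the pseudogene counts could not restore them, so it cannot show what their loss did to the fold changes.

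The other isozymes and steps of glycolysis were a list of 23 genes, of which 8 had enough counts to test, 2 fell and none rose, with a median log2 fold change of -0.41. Hk1, the housekeeping hexokinase, had 269, 496 and 126 counts in variation A and 2733 and 3053 in variation B and fell (log2 fold change -1.30 ± 0.31, edgeR adjusted p = 0.021). Pgam1, the phosphoglycerate mutase between Pgk1 and Eno1, had 50, 60 and 21 counts and 303 and 520, and fell (-1.40 ± 0.37, edgeR adjusted p = 0.0286), with 42.2% of its 30-base words in pseudogenes. Hk1 and Hk2, the hexokinase genes tested, were thus both called lower on TMM totals. On plain library totals both lay the other way, with Hk1 at 117, 110 and 106 CPM against 125 and 133, and Pgam1 overlapped. Pfkp, the platelet-type phosphofructokinase and the most counted of the list, was at -0.05 ± 0.32 (edgeR adjusted p = 0.918), beside -1.01 for Pfkl and -0.77 ± 0.28 for Pfkm (edgeR adjusted p = 0.0778). Ldhb, the heart-type partner of Ldha, had 0 counts in each A library and 4 and 2 in the B libraries.

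Transport and control of glycolysis formed a list of 20 genes, of which 13 were tested, 2 rose and none fell, with a median of 0.19. All list counts here stand beside 11.0% of all genes tested called higher and 12.4% called lower. Bsg, the membrane glycoprotein that carries lactate transporters to the surface, had 86, 137 and 25 counts in variation A and 18987 and 20287 in variation B, and rose (log2 fold change 3.40 ± 0.31, edgeR adjusted p = 6.4e-04). Hif1a, the oxygen-regulated factor that turns on glycolytic genes, rose as well (1.63 ± 0.34, edgeR adjusted p = 0.0131). Slc2a3, a glucose transporter and the most counted of the list with up to 65774 counts in B2, was at 0.93 ± 0.36 (edgeR adjusted p = 0.0869). Among the other glucose and lactate transporters tested, Slc16a1 was at 0.85 ± 0.33, Slc2a1 at 0.19 ± 0.33, Slc16a3 at -0.31 ± 0.43 and Slc2a8 at -1.61 ± 0.67, and none passed (edgeR adjusted p = 0.0948, 0.692, 0.619 and 0.112).

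In the pentose phosphate pathway, which branches from glucose 6-phosphate, all 8 genes were tested, 2 fell and none rose (median -0.32). Pgls, the lactonase of the oxidative arm, was at -3.0 ± 0.55 (edgeR adjusted p = 0.00947), and Tkt, the transketolase that links the pathway back to glycolysis, was at -1.75 ± 0.32 (edgeR adjusted p = 0.0089). Pgd, the most counted of the list, was at -0.21 ± 0.27 (edgeR adjusted p = 0.588). Of the 22 genes of pyruvate dehydrogenase and the TCA cycle, 21 were tested, 3 fell and 1 rose (median -0.20). Citrate synthase (Cs) was at -2.02 ± 0.35, Sdhd at -1.51 ± 0.39 and Suclg1 at -1.36 ± 0.32 (edgeR adjusted p = 0.00778, 0.0262 and 0.0197). Idh3a, a subunit of the NAD-linked isocitrate dehydrogenase and the most counted of the list, rose by 3.21 ± 0.46 on the log2 scale, from 271, 125 and 44 counts to 29809 and 34238 (edgeR adjusted p = 0.00381). On plain library totals, of the 7 genes called lower in these lists, Pgls, Tkt and Cs were below all A libraries in both B libraries, Pgam1, Suclg1 and Sdhd overlapped and Hk1 was above, where 5.06% of all genes tested were below. Of the 8 T cell markers tested, 2 rose and none fell. These were Cd3g (2.00 ± 0.38, edgeR adjusted p = 0.00982) and Cd3e (1.13 ± 0.27, edgeR adjusted p = 0.02), which encode chains of the T cell receptor complex at the membrane. Cd3d, of the same complex, was at 0.34 ± 0.28, Cd2 at -1.27 ± 0.55 (edgeR adjusted p = 0.391 and 0.123), and Thy1, the most counted, was at 0.21 ± 0.30 (edgeR adjusted p = 0.634).

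The genes whose pattern over the 5 libraries was most like the mean of the 10 were sought among 796 other protein-coding genes with at least 50 counts in each library, by the root mean square difference of centred log2 levels. The closest was Acly (0.08), the enzyme that makes cytosolic acetyl-CoA from citrate, followed by Copb2 (0.11), Cox6a1 (0.12), Uhrf1 (0.13) and Nomo1 (0.13). The mean of the 10 stood at 0.40, 0.65 and 0.36 around its centre in variation A and at -0.84 and -0.56 in variation B, and Acly at 0.37, 0.54 and 0.49 and at -0.78 and -0.62. With 5 libraries in 2 groups, a step between the groups is enough to give a small difference.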

How the data were processed

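Libraries were grouped by the library names in the labels. According to the submitters' processing notes and the methods, the authors trimmed reads (Trimmomatic 0.36), aligned them to GRCm38 (STAR 2.7.3a) and counted them per gene on GENCODE M24 exons (featureCounts 1.6.4). The deposited values are raw counts, taken without strand, and reads with several alignments or over several genes were left out by default. Read length was not given in the sources used here.

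Symbols, types and transcripts came from GENCODE M21, which matched 55144 of 55385 genes. A second gene ID with the symbol Aldoa had 0 counts. Variation B was compared with variation A by edgeR 4.0.16 (filterByExpr, TMM, quasi-likelihood) in R 4.3.3, with p-values adjusted by Benjamini-Hochberg over the whole table, after the code was tested on simulated data. Shares were compared by an exact permutation test (Python 3.11.15). Pseudogenes were assigned by their best blastn 2.17.0 match (85% identity or more over 50% or more of the pseudogene), and copies on chromosome 18 or unplaced sequence were not used for the windows shown. Libraries of a group differed by more than counting noise (chi-square per degree of freedom 11.4 or above), so none counted as a duplicate. DESeq2 1.42.0, other scalings and filters, and left-out libraries were alternatives.

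The genes, lists and tests were chosen with earlier results of these data known. Named from each list were genes past the test, at most 4 per direction, and the most counted, and per gene the 2 most counted pseudogenes. Pfkm, Ldhb, Slc16a1, Slc16a3, Slc2a1, Slc2a8, Cd3d and Cd2 were named after their values were seen.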

Additional observations from a re-analysis of the deposited data

How the results depend on the processing

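Of the 10 genes, 4 were called lower, against 1 with library totals in place of TMM, 2 with a replicate block, and 1 to 6 with a single library left out (the 6, without A1, include Pfkl and Pkm), where a lone B library is assumed to vary like the A libraries. The number called lower was 5 with protein-coding genes only, where Pkm passed. It was 3 with no filter on low counts and with at least 10 counts in each library. None was called higher under any alternative. Gapdh was called in all 15 alternatives (edgeR or DESeq2 adjusted p from 2.6e-11 to 0.0477), Eno1 in 13, Ldha in 10 and Hk2 in 7, with adjusted p up to 0.061, 0.791 and 0.317. Of 150 gene and setting pairs, 124 kept direction and call, 14 lost the call with the same direction, 3 gained it and 9 changed direction, of which Hk2 with library totals also lost its call. With library totals the log2 fold change turned positive for Hk2 (0.37), Gpi1 (0.87), Pfkl (0.54), Aldoa (0.65), Tpi1 (0.71) and Pkm (0.49). That of Pgk1 was -0.019 with the block and from -0.26 to 0.85 with a library left out. The share of counts on the 10 genes, B minus A, was -0.276 points among protein-coding nuclear counts and -0.0567 points without rRNA and mitochondrial genes, against 0.056 of all counts, and 0.0378 to 0.0741 with a library left out.

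Same-numbered libraries did not deviate together (correlations of -0.10 for A1 and B1 and -0.03 for A2 and B2) and no source pairs them. With the replicate block, 761 genes were called higher and 813 lower over all genes, in place of 1135 and 1276, and Ldha (adjusted p = 0.0537) and Hk2 (0.184) were not called. With at least 10 counts in each library, 592 and 722 of 4599 genes were called. Without A1 the counts were 2526 and 1821, and without any other library 161 to 431 and 137 to 466. Over all genes tested the median was 0.05 on the log2 scale, against -0.08 with upper-quartile factors, -0.15 with DESeq2 and 0.46 without a filter on low counts, the last 2 over other sets of genes. The cause of these differences was not tested. The A libraries are shallow, so that Pgk1 rests on 22 counts in A3.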
